A study of Homo sapiens with 6 samples.

Results

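The 7 genes HMGCS1, IDI1, FDFT1, SQLE, LSS, DHCR7 and INSIG1 were read out of 68201 genes in RNA from whole cells (WC) and from the extracellular vesicles (EVs) that these cells released. They were picked by gene symbol: the first 6 encode enzymes that build cholesterol, and INSIG1 encodes a protein that restrains that synthesis. K562 is a human cell line from a chronic myelogenous leukaemia, used here as wild type and without treatment. Each group had 3 libraries. Per the study's methods, the cells of each replicate grew for 36 h in medium with EV-depleted serum, cells and conditioned medium were collected together, and EVs were purified by size exclusion chromatography. Reverse transcription started at poly(A) tails, and the PCR-amplified cDNA was sequenced on nanopore flow cells, each shared by the WC and the EV sample of 1 replicate. Cell RNA and EV RNA were extracted with different reagents, so reagent and group cannot be told apart.

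Cholesterol is made from acetyl-CoA through mevalonate, the branched isoprenoid units, squalene and lanosterol, and most of the later steps take place at the endoplasmic reticulum. Transcription of these enzyme genes is driven by SREBP proteins, which leave the endoplasmic reticulum when its membranes run short of sterol. INSIG1 holds the SREBP escort protein SCAP back when sterol is plentiful, and its own gene is a target of SREBP.

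Gene counts summed to between 2480560 and 3178211 in WC libraries and between 560157 and 881338 in EV libraries, so EV values rest on far fewer reads. Levels are given as CPM, the count per 1000000 reads of a library size scaled by TMM, a method that assumes most genes to be level between libraries. All 8 erythroid markers of K562 were counted in both groups, with summed levels of 358 to 411 CPM in WC and 550 to 633 CPM in EVs. They did not move as 1: the mean of HBG2 was 10.9 CPM in WC and 213 CPM in EVs, that of TFRC 143 and 65.7 CPM. Of 8 markers of other blood cells, 6 had reads in WC and 4 in EVs, with sums of 83.8 to 98.1 CPM and 47.0 to 70.3 CPM, most of it from PTPRC and CD3D, while MS4A1 and MPO were at 0. A level is a share of the poly(A) RNA of a library, and fewer vesicles with a transcript cannot be told apart from fewer copies per vesicle. The study describes the EV purifications as biological triplicates, and p-values measure the spread between these libraries.

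The sterol genes did not move together. At an adjusted p under 0.05 in edgeR's quasi-likelihood test, DHCR7 and SQLE were lower in EVs and IDI1 was higher. The other 4, HMGCS1, FDFT1, LSS and INSIG1, did not pass. Of all 8716 genes tested, 21.4% were lower and 22.8% higher in EVs at the same threshold, so 2 of 7 lower and 1 of 7 higher was near the background. All 3 EV libraries lay below all 3 WC libraries for 2 of the 7 genes and above them for 1, while this held for 30.3% and 24.9% of all tested genes. The median log2 fold change (EV minus WC) of the 7 genes was -0.03, beside -0.13 over all tested genes and -0.24 over the 6768 tested protein-coding genes. The fit behind these calls had no term for the replicate. With the replicate number as a block, SQLE did not pass (edgeR adjusted p = 0.0506) and INSIG1 did (edgeR adjusted p = 0.00877).

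**Figure D1:**
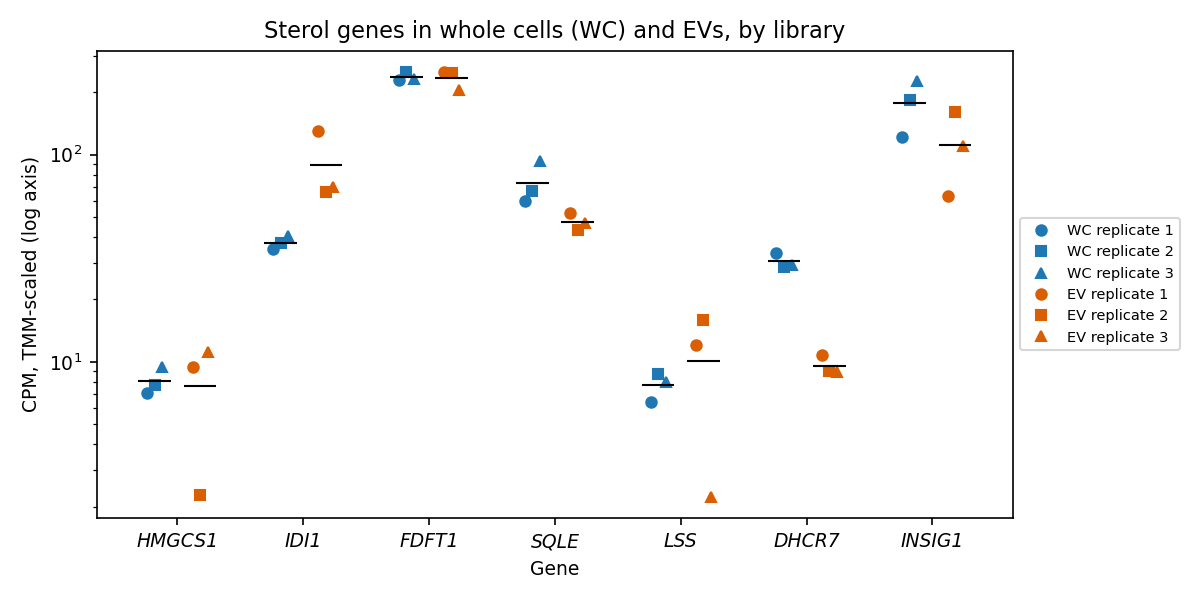
TMM-scaled CPM on a log axis for the 7 sterol genes, with 1 point per library (blue WC, orange EV, marker shape by replicate) and a black line at each group mean. All EV points of DHCR7 and SQLE lie under all WC points, those of IDI1 lie above, and the groups overlap for the other 4 genes.

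HMGCS1, which joins acetyl-CoA to acetoacetyl-CoA at the head of the mevalonate pathway, lies at chr5:43287470-43313512 (GRCh38, as are all positions here, minus strand) and was 1 of the 2 least counted members. It had 21, 31 and 33 reads in the WC libraries and 7, 1 and 5 in the EV libraries. Its level was 8.08 ± 1.20 CPM in WC and 7.62 ± 4.72 CPM in EVs (SD, n = 3), and the groups overlapped. The log2 fold change of -0.03 had a 95% confidence interval of -0.98 to 0.92 (edgeR adjusted p = 0.96), so a change of nearly 2-fold either way was not excluded. The single read in EV replicate 2 decided the sign: without that library the log2 fold change was 0.31 (edgeR adjusted p = 0.643).

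IDI1 (chr10:1039152-1049119, minus strand), the isomerase that turns isopentenyl diphosphate into dimethylallyl diphosphate, was the only one of the 7 genes that was higher in EVs. Its levels were 35.0, 37.3 and 40.5 CPM in the WC libraries and 130, 65.8 and 69.4 CPM in the EV libraries, from 395 reads in WC and 157 in EVs. Every EV library lay above every WC library, and EV replicate 1 stood nearly 2-fold above the other EV libraries. The log2 fold change was 1.29 ± 0.23 (SE), a 2.45-fold higher level (edgeR adjusted p = 4.6e-05). Without EV replicate 1 it fell to 0.81 (edgeR adjusted p = 0.00581), and with library sizes taken as total counts to 0.66 (edgeR adjusted p = 0.0249), and it stayed past the threshold in all 14 alternative fits. The 3 processed pseudogenes named after IDI1 had no read in any library.

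IDI1 was also the member with the largest share of isoform signal in a transcript without a predicted start codon. The isoform table of the authors gives 1 mean per isoform over all libraries, so it cannot be split into WC and EV here. IDI1-201, with 5 exons and 1902 bases, had an authors' mean of 43.8 normalized reads. IDI1-205, with 4 exons and 1729 bases, had 21.9 and was predicted to lack a start codon. Another model, which began in the second exon of IDI1-201, had 7.44. The only difference between the exons of IDI1-201 and IDI1-205 was the second exon, chr10:1043999-1044171 on the minus strand of GRCh38. The predicted reading frame is placed from the ATG in capitals at base 32. Another ATG in the same frame stands directly before it, so which of them opens the frame is uncertain. The exon is printed because both lie inside it, and IDI1-205 goes without it:

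IDI1 second exon: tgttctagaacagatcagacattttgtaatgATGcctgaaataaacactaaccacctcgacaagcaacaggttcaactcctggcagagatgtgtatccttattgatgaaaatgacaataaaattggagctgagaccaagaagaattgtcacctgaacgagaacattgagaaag

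The exon is 173 bases long and is shared by 3 annotated IDI1 transcripts. Counted from the ATG in capitals, the frame spanned 684 bases with its stop codon. The canonical IDI1 transcript is annotated with a longer coding sequence of 852 bases, counted without the stop codon.

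FDFT1 (chr8:11795573-11839395, plus strand), the squalene synthase that commits the pathway to sterols, was the most abundant member by read count and kept nearly the same level in both groups. The WC libraries had 230, 249 and 232 CPM and the EV libraries 250, 247 and 206 CPM, from 2491 and 387 reads. The ranges overlapped. The log2 fold change was -0.01, with a 95% confidence interval of -0.34 to 0.32 (edgeR adjusted p = 0.96). This interval was the narrowest of the 7, and FDFT1 took 41.9% ± 5.21 of the summed CPM of the 7 genes in WC and 46.0% ± 1.13 in EVs (SD, n = 3). With library sizes taken as total counts the log2 fold change was -0.65 (edgeR adjusted p = 0.00121), while the median over all tested genes was then -0.77.

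FDFT1 stands in 2 places of the genome build, on chromosome 8 and on the scaffold KZ208915.1, and the isoform models were split between both. Whether the cells hold more than 1 FDFT1 locus was not tested. The 3 models on the scaffold held 77.7% of the authors' isoform mean of this gene and the 2 models on chromosome 8 held 22.3%. In the gene table all FDFT1 reads stood under the chromosome 8 gene, and the second gene ID of the same symbol had no read. To which place of the build a read of FDFT1 belongs is therefore uncertain, and the split into isoforms with it.

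SQLE (chr8:124998497-125022283, plus strand), the squalene epoxidase that is a rate-limiting step of the pathway, was lower in EVs by a small margin. The levels were 59.6, 66.6 and 93.3 CPM in WC libraries and 52.5, 43.1 and 47.0 CPM in EV libraries, from 770 and 79 reads. No EV library reached the lowest WC library. SQLE fell by 0.61 ± 0.23 on the log2 scale, to 0.657 of the WC level (edgeR adjusted p = 0.034). That call was fragile. It was lost with the replicate number as a block (edgeR adjusted p = 0.0506), with DESeq2 (adjusted p = 0.0701), with TMM factors from protein-coding genes (edgeR adjusted p = 0.126), and without WC replicate 3, EV replicate 2 or EV replicate 3 (edgeR adjusted p = 0.112, 0.106 and 0.0823).

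LSS (chr21:46188141-46228824, minus strand), the lanosterol synthase that folds the epoxide of squalene into the first sterol, was as sparsely counted as HMGCS1. The WC libraries had 19, 35 and 28 reads and the EV libraries 9, 7 and 1. In CPM the means were 7.71 ± 1.20 in WC and 10.1 ± 7.04 in EVs (SD, n = 3), with overlapping ranges and most of the EV spread from the single read in EV replicate 3. The log2 fold change of 0.41 had a 95% confidence interval of -0.51 to 1.33 (edgeR adjusted p = 0.47), ran from 0.09 to 0.79 when an EV library was left out, and turned to -0.22 with total-count scaling (edgeR adjusted p = 0.673).

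DHCR7 (chr11:71428193-71452868, minus strand), the reductase that finishes cholesterol from its dehydro precursor, showed the strongest decrease of the 7 genes. The levels were 33.7, 28.8 and 29.4 CPM in WC libraries and 10.8, 9.07 and 8.95 CPM in EV libraries. The WC and EV ranges were far apart and the ratio of EV to WC hardly varied, at 0.319, 0.315 and 0.305 for replicates 1, 2 and 3. DHCR7 fell by 1.63 ± 0.33 on the log2 scale, a 3.10-fold lower level (edgeR adjusted p = 0.00023), and it passed the threshold in all 14 alternative fits, with log2 fold changes from -2.26 to -1.47. The EV levels rest on 8, 4 and 4 reads, for which counting error alone gives an SD of 4.28 CPM, above the SD of 1.01 CPM that was measured.

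A long noncoding gene without a name, ENSG00000254682, overlaps 3596 bases of DHCR7 on the opposite strand. It had 157 reads in WC and 30 in EVs, at 15.4 ± 4.77 and 17.7 ± 5.52 CPM (SD, n = 3), and it did not pass the test (log2 fold change 0.27, edgeR adjusted p = 0.56). The strand setting of the counting is not given in the sources used here, so reads from the shared stretch cannot be assigned to either strand with certainty. Overlapping antisense genes of HMGCS1, IDI1, FDFT1 and LSS had at most 5 reads in a group.

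INSIG1 (chr7:155297776-155310235, plus strand), the brake on SREBP activation, varied widely within both groups. The WC libraries had 122, 184 and 227 CPM and the EV libraries 63.2, 161 and 110 CPM, from 1893 and 167 reads. Within each replicate number the EV library was lower, at 0.518, 0.875 and 0.483 of its WC library, although the group ranges overlapped. The log2 fold change was -0.72 ± 0.31 (SE), which did not pass (edgeR adjusted p = 0.076). With the replicate number as a block it was -0.71 and passed (edgeR adjusted p = 0.00877), as it also did without EV replicate 2, at -1.10 (edgeR adjusted p = 0.00287), or without WC replicate 1, at -0.99 (edgeR adjusted p = 0.00825). In all it passed in 7 of 14 alternative fits, and the log2 fold change ran from -1.39 with total-count scaling to -0.43 without EV replicate 1.

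INSIG1 had 4 listed isoforms, the most after FDFT1. INSIG1-201 led with an authors' mean of 15.9 normalized reads. A model with a first exon longer by 68 bases had 6.28 and the same predicted coding length of 834 bases. INSIG1-205, an isoform of 2 long exons predicted to lack a start codon, had 3.53. The last model had 3.60 and carried 1 exon more than INSIG1-201, at chr7:155303825-155303895 on the plus strand of GRCh38. It is printed because it changes the predicted end of the reading frame; the exon of 71 bases is in capitals and the 10 intron bases on each side are in lower case:

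INSIG1 added exon: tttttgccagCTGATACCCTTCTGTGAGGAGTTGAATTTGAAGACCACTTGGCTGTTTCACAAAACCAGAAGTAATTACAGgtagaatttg

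The exon is bounded by ag before and gt after it, lies within the long second exon of INSIG1-205 and is also annotated in INSIG1-203 and INSIG1-206. With it, the predicted coding length rose from 834 to 993 bases, and the predicted stop codon lay 88 bases further along the chromosome.

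**Figure D2:**
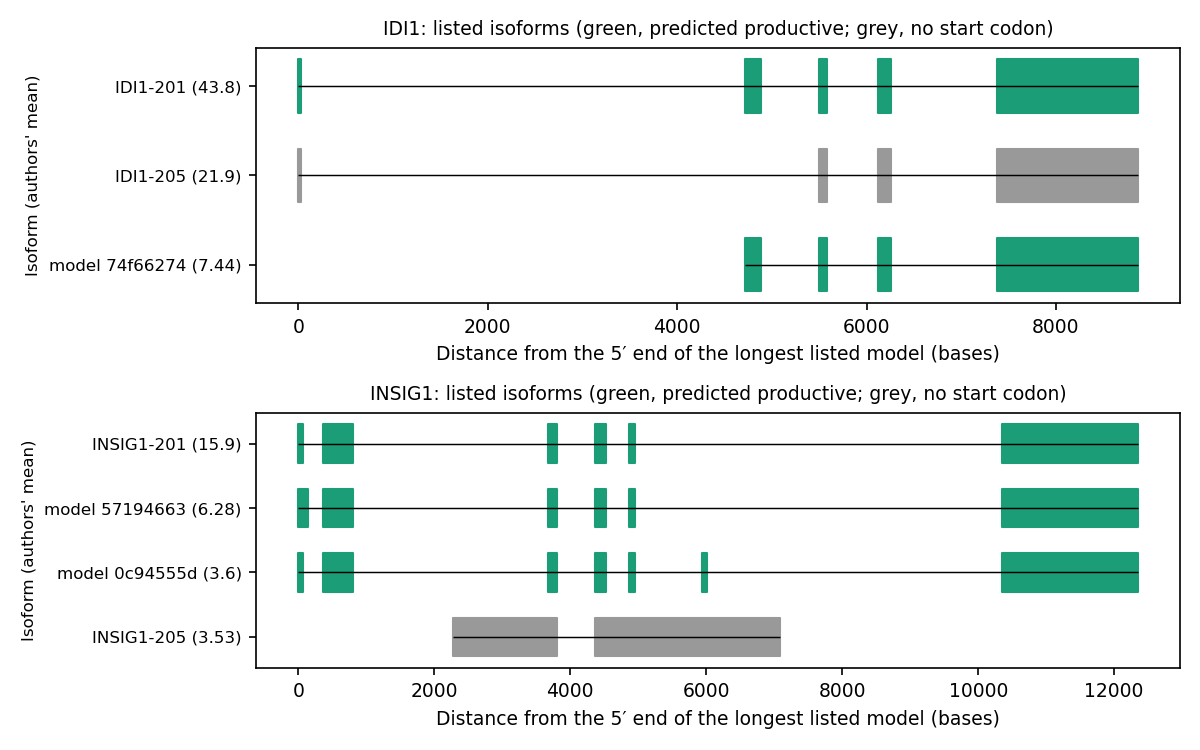
Exons (boxes) and introns (lines) of the listed isoforms of IDI1 and INSIG1, drawn to scale by distance in bases from the 5′ end of the first exon, with the authors' mean of normalized reads over all libraries beside each name. IDI1-205 lacks the second exon of IDI1-201, and 1 INSIG1 model holds an exon of its own between the last exons of INSIG1-201, a stretch that is also covered by the long second exon of INSIG1-205.

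Over all members the isoform table listed 15 isoforms of 6 genes, and 13 of them were predicted productive. These held 88.6% of the members' summed isoform mean, and 89.9% when isoforms with a mean under 5 were left out. Both are shares of the listed isoforms only. The listed isoforms of INSIG1 summed to 29.3 normalized reads, beside a separately counted gene mean of 191. For FDFT1 these values were 81.2 and 310, for SQLE 24.3 and 79.9, and for DHCR7 8.98 and 27.0. They were closer for IDI1, at 73.1 and 81.7, and for HMGCS1, at 5.97 and 10.3. SQLE-201, with 24.3 normalized reads, was the only listed isoform of SQLE. DHCR7 and HMGCS1 likewise had 1 each, DHCR7-201 with 8.98 and the HMGCS1 isoform with 5.97. LSS had none in this table, although 5 models of it were among the 57 isoform models of the 7 genes. Of those 57 models, 44 were predicted productive, 7 had a premature stop codon and 6 had no start codon.

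Levels of different genes are given in CPM and in TPM (counts per exon length, scaled to a sum of 1000000 in every library). The counts are of whole reads, so dividing by exon length lowers genes with long exons, and CPM is the nearer measure of abundance. By CPM the WC order was FDFT1 (237), INSIG1 (178), SQLE (73.1), IDI1 (37.6), DHCR7 (30.6), HMGCS1 (8.08) and LSS (7.71). In EVs it was FDFT1 (234), INSIG1 (111), IDI1 (88.5), SQLE (47.5), LSS (10.1), DHCR7 (9.59) and HMGCS1 (7.62). In CPM, HMGCS1 and LSS overlapped in both groups, DHCR7 overlapped with each of them in EVs, and INSIG1 overlapped with IDI1 in EVs. TPM carries no TMM scaling and is not to be compared between WC and EVs. FDFT1, for example, had means of 237 CPM in WC and 234 CPM in EVs, although its TPM differed. In WC the order by TPM was INSIG1 at 48.4 ± 17.3 TPM, FDFT1 at 45.8 ± 3.86 TPM, SQLE at 16.9 ± 5.18 TPM, IDI1 at 8.63 ± 1.20 TPM, DHCR7 at 4.36 ± 0.203 TPM, HMGCS1 at 1.21 ± 0.258 TPM and LSS at 1.05 ± 0.211 TPM (SD, n = 3). INSIG1 and FDFT1 overlapped, as did HMGCS1 and LSS, and the first pair and the last pair swapped places when the canonical transcript length was used. In EVs the order by TPM was FDFT1 at 23.3 ± 3.99 TPM, INSIG1 at 15.1 ± 6.11 TPM, IDI1 at 10.6 ± 5.27 TPM and SQLE at 5.58 ± 0.968 TPM. The first 3 overlapped with their neighbours, and IDI1 lay above SQLE in every library, the opposite of their order in WC. LSS, DHCR7 and HMGCS1 followed with means between 0.582 and 0.713 TPM and could not be ordered.

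The sum of the 7 genes was 572 ± 73.6 CPM in WC and 509 ± 48.0 CPM in EVs (SD, n = 3), with overlapping ranges. As a share of the total counts, without TMM scaling, the sum was 0.0591%, 0.0732% and 0.0832% in the WC libraries and 0.0446%, 0.0428% and 0.0349% in the EV libraries, which did not overlap. Without TMM scaling the median log2 fold change over all tested genes was also below 0, at -0.77. Within that sum IDI1 took 6.61% ± 0.423 in WC and 17.3% ± 6.55 in EVs, while DHCR7 took 5.45% ± 1.20 and 1.89% ± 0.197. The mean of the 7 centred profiles lay nearest to FDFT1 and SQLE and farther from the other 5. Distances from it over the 6 libraries were 0.418 for FDFT1, 0.507 for SQLE and 1.33 to 1.84 for the other 5, in log2 CPM. Those of HMGCS1 and LSS each include an EV library with 1 read. The 5 protein-coding genes nearest to that mean profile were AAGAB, KDSR, ASS1, ZNF621 and DRAM2, at distances of 0.099 to 0.192.

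The choice of library scaling moved all 7 genes by about the same amount. With total counts as library sizes the median log2 fold change of all tested genes went from -0.13 to -0.77, and 4436 genes were lower and 1083 higher, against 1864 and 1987 with TMM. Under that scaling INSIG1, FDFT1, SQLE and DHCR7 were lower and IDI1 was still higher. With TMM factors from protein-coding genes only, DHCR7 was the only member lower and IDI1 the only one higher. FDFT1 at 0.15 and HMGCS1 at 0.14 then changed sign without passing the test.

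**Figure D3:**
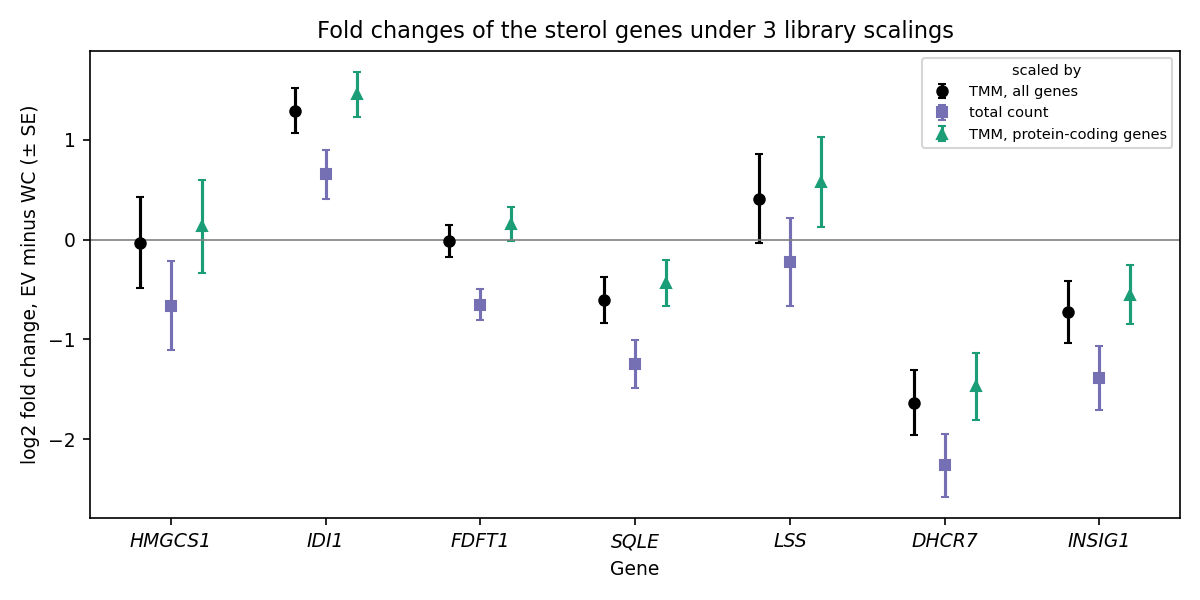
Log2 fold changes (EV minus WC) of the 7 sterol genes with their standard errors, with library sizes from TMM over all genes (black circles), total counts (purple squares) and TMM over protein-coding genes (green triangles). IDI1 lies above 0 and DHCR7, SQLE and INSIG1 lie under 0 with all 3, while HMGCS1, FDFT1 and LSS change side.

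Transcript length was set beside the fold changes, and its effect on the members was not tested. Over 6759 tested protein-coding genes, longer canonical transcripts had lower fold changes (Spearman rho -0.245 across genes, which share libraries and are no replicates). Over the 7 members the Spearman rho was 0.107. IDI1 and DHCR7, with canonical transcripts of 2739 and 2627 bases, moved in opposite directions. The 2 longest, HMGCS1 at 5350 and LSS at 4886 bases, did not pass the test. They were also the least counted members, so this tells nothing about length.

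A list of 14 other enzymes of the pathway, which is not exhaustive, had 11 genes with enough reads to test. Of these, 3 were lower in EVs, 1 was higher and 7 did not pass, with a median log2 fold change of -0.45. Beside the 21.4% lower and 22.8% higher over all tested genes, 3 of 11 lower was near the background. DESeq2 called 1 lower, since FDPS (adjusted p = 0.0563) and SC5D (adjusted p = 0.0651) were lost there. Of the 3 lower genes, LBR and SC5D act after lanosterol. LBR, a sterol reductase that is also a receptor of the nuclear lamina, fell by 1.29 ± 0.24 on the log2 scale (edgeR adjusted p = 0.00011), and SC5D, a desaturase just before DHCR7, fell by 1.26 ± 0.44 (edgeR adjusted p = 0.021). EBP, the isomerase upstream of SC5D, went the other way, from 2.78 ± 0.886 CPM in WC to 11.4 ± 2.10 CPM in EVs (log2 fold change 1.93 ± 0.46, edgeR adjusted p = 0.0014). This rested on 30 reads in WC and 18 in EVs. EBP reached the expression filter only in EV libraries, where it was high, so its entry into the test depended on the EV level. SC5D reached it only in WC libraries. No enzyme of this list was called higher in any fit without a WC library.

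FDPS, the synthase directly between IDI1 and FDFT1, was lower in EVs, with 75 reads in WC and 2 in EVs. FDPS reached the expression filter only in WC libraries, where it was high, so its entry into the test depended on the WC level. The ratio of its scaled counts was 0.171, with an exact interval of 0.0204 to 0.640 that covers counting error only (edgeR adjusted p = 0.0085). It has 8 named pseudogenes, 6 of them with reads, 50 in WC and 9 in EVs, so reads may have been split between copies. The step before it, IDI1, was higher in EVs, and the interval of the step after it, FDFT1, reached no further than 0.34 from 0 on the log2 scale. ACAT2, GGPS1 and CYP51A1 had too few reads to test.

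**Figure D4:**
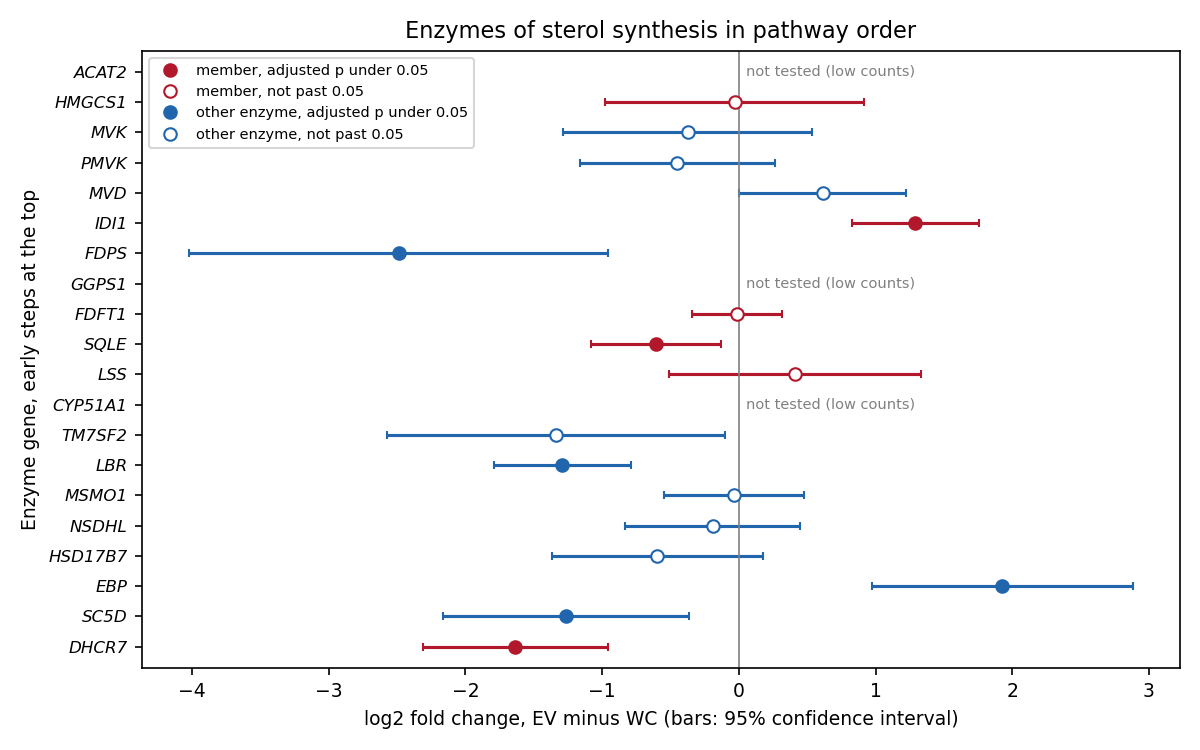
Log2 fold changes (EV minus WC) with 95% confidence intervals for the enzymes of sterol synthesis, from early steps at the top to late steps at the bottom (members red, other enzymes blue, filled where the adjusted p was under 0.05). IDI1 and EBP are the filled points on the right; FDPS, SQLE, LBR, SC5D and DHCR7 are those on the left.

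Of 23 genes that sense, carry or store sterols, 18 were tested, 3 were lower in EVs, 1 was higher and 14 did not pass, with a median log2 fold change of -0.57. Neither count was above the 21.4% lower and 22.8% higher of all tested genes. The lower genes were SOAT1, which esterifies cholesterol (-1.92 ± 0.35, edgeR adjusted p = 7.5e-05), MBTPS1, the protease that makes the first cut in SREBP (-1.77 ± 0.38, edgeR adjusted p = 0.00051), and NPC1, which exports cholesterol from lysosomes. NPC1 had 100 reads in WC and 2 in EVs, a ratio of scaled counts of 0.128 with an exact interval of 0.0153 to 0.476 (edgeR adjusted p = 0.0054). Like FDPS, NPC1 reached the expression filter only in WC libraries, where it was high. STARD4, a carrier of sterol between membranes, was higher at 1.09 ± 0.30 (edgeR adjusted p = 0.0048). INSIG2, the close relative of INSIG1, was too sparse for a narrow estimate, with 79 reads in WC and 8 in EVs (log2 fold change -0.62 ± 0.56, edgeR adjusted p = 0.39), and it is named here as the counterpart of a member, not by its result.

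Fatty acid synthesis shares acetyl-CoA and SREBP control with sterol synthesis, so 15 of its genes were set beside. Of 14 tested, 5 were lower in EVs and 0 higher in edgeR, where 1 was higher at an unadjusted p under 0.05 and DESeq2 called 0 higher and 3 lower. Over all tested genes 21.4% were lower and 22.8% higher. The median log2 fold change was -0.18. The lowest p-values were those of HACD3 and ELOVL1, both of the elongation cycle, at -1.76 ± 0.25 and -1.66 ± 0.33 (edgeR adjusted p = 3.1e-06 and 0.00021). Whether these counts differ from those of the sterol genes was not tested.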

How the data were processed

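Whole-cell and EV RNA of K562 was sequenced as nanopore PCR-cDNA in 3 libraries per group. The authors called bases with Guppy, mapped reads with minimap2 in spliced mode to GRCh38 and counted them per GENCODE gene with featureCounts for long reads. Every test used these whole-read counts as deposited. The deposited signal values, the authors' counts divided by 1 size factor per library and the authors' isoform means from FLAIR, served for the symbol match and for isoforms. The authors' columns of fold changes and p-values from DESeq2 were not used. Of 68247 count lines, 68201 genes remained with 1 line per gene ID. Genes were tested with edgeR 4.0.16 (R 4.3.3): TMM factors, filterByExpr given the groups, quasi-likelihood fits with the robust option, and p-values adjusted by Benjamini-Hochberg across 8716 genes. The filter asks for a minimum level in 3 libraries of any group, so a gene may enter the test through 1 group alone. FDPS, SC5D, NPC1 and FADS2 entered through WC alone, and EBP through EVs alone. Samples were grouped by their labels. Confidence intervals are at 95%. DESeq2 1.42.0, other scalings and filters, a replicate block, thinned WC libraries and left-out libraries were alternatives. Exon lengths, positions and sequences came from GENCODE v44 and the GRCh38 sequence, while the authors used v41. Pathway lists, markers and named genes followed a written rule: all members, genes of the lists by lowest p up to 6 or, for fatty acids, 3 per list, and the 5 genes nearest to the members' mean profile by Euclidean distance. One gene of the enzyme list is not reported here. Members and lists were chosen with earlier results of these data known. The fit was tested on simulated data. That the libraries of a replicate number belong together is known from the study. Correlations of their deviations from the group means were 0.062, 0.024 and 0.004. No intervals here cover more than the spread between these 3 libraries per group. Figures were drawn with matplotlib 3.10.9.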

Additional observations from a re-analysis of the deposited data

How the results depend on the processing

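Depth limits these results: HMGCS1 and LSS had at most 9 reads in an EV library and fell under the filter when WC libraries were thinned or a WC library was left out, so they have no value there. DHCR7 and IDI1 kept their calls in all 14 alternatives each. Members lower in EVs, 2 with TMM, numbered 4 with total-count scaling and 1 with DESeq2 or with TMM from protein-coding genes, and 1 to 3 when a library was left out. With the replicate block DHCR7 and INSIG1 were lower, so the count stayed at 2, with SQLE lost and INSIG1 gained, and the block changed no other call of a member. In the lists it moved other enzymes lower from 3 to 4 (TM7SF2 gained) and fatty acid genes lower from 5 to 4 (FADS2 lost), and no other count. Signs turned for HMGCS1 (0.14) and FDFT1 (0.15) with TMM from protein-coding genes, for HMGCS1 without EV replicate 2 (range -0.29 to 0.31 over left-out libraries), for FDFT1 without EV replicate 3 (range -0.10 to 0.058) and for LSS with total-count scaling (-0.22). None of these passed the test, and the cause was not tested. Other enzymes lower, 3 with TMM, numbered 9 with total-count scaling, 1 with DESeq2 or thinned WC libraries and 2 to 3 without a library. Other enzymes higher, 1 with TMM, numbered 2 with TMM from protein-coding genes and 0 with thinned WC libraries, where EBP was not tested, and 0 to 1 without a library. Sterol regulators lower, 3 with TMM, numbered 12 with total-count scaling, and those higher, 1 with TMM, numbered 0 with total-count scaling, 2 with TMM from protein-coding genes and 1 to 2 without a library. Fatty acid genes lower, 5 with TMM, numbered 8 with total-count scaling, 3 with TMM from protein-coding genes or DESeq2 and 2 to 5 without a library. Those higher, 0 with TMM, numbered 1 with TMM from protein-coding genes and 0 to 1 without a library. The share of productive isoforms moved by under 2 percentage points.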
